A study of Homo sapiens with 21 samples.

Results

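The genes described here are the ZNF genes whose signal lay above the array's own median on every array of a transfection time course. The cells are HEY, an established human line from an ovarian cancer. A gene was taken as a member if its platform symbol was ZNF followed by a number and its brightest probe set with a single symbol was above the median on all 21 arrays. This gave 277 members of 425 ZNF genes measured, or 65.2%. The members were chosen by their measured level on all arrays, so their levels are given as a description, and a ZNF gene that dropped below the median in any sample was left out by the rule. Of the other 148 ZNF genes, 88 were above the median on no array, 52 were bright enough to be tested and 96 were not.

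HEY cells were transfected by lipid reagent with mir-429 and collected at 24, 48 and 144 h, or with a negative control synthetic miRNA and collected at the same times. Untransfected cells were collected at 0 h. Each of these 7 groups had 3 arrays labelled as biological replicates, and the labels do not say whether the cultures were separate, so the p-values rest on array-to-array spread that may be technical. All groups are a single cell line, and the dose of miRNA is not given in the sources used here. Total RNA was amplified by 3′ priming, labelled and hybridised to HG-U133 Plus 2.0 arrays, and values are deposited RMA log2 expression. In RNA from whole cultures, fewer cells of a type and less RNA per cell cannot be told apart.

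ZNF genes code mostly for transcription factors that read DNA through tandem C2H2 zinc fingers. Many also carry a KRAB domain, which recruits the scaffold TRIM28 and the histone methyltransferase SETDB1 to silence transposable elements and genes, and many of these sit in clusters on chromosome 19. A smaller number of ZNF proteins bind RNA, help build ribosomes or act at the spindle. The miRNA mir-429 belongs to the miR-200 family, known for lowering the repressors ZEB1 and ZEB2, themselves zinc finger proteins, and for holding cells in an epithelial state. Its mature sequence from RefSeq is set beside its relatives miR-200b and miR-200c because the 3 share the same seed (bases 2 to 8, in capitals), the stretch that pairs with target transcripts:
hsa-miR-429: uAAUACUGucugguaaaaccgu
hsa-miR-200b-3p: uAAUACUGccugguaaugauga
hsa-miR-200c-3p: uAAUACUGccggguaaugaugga

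The promoters of 3 members on which the results turn are given as the 250 bases before the RefSeq start on the strand of the gene (GRCh38.p14). ZNF367 had the largest rise with mir-429, ZNF420 was the member called lower at every time, and ZNF79 varied most between groups relative to its replicates. The windows are chr9:96418371-96418620 on the minus strand for ZNF367, chr19:37078183-37078432 on the plus strand for ZNF420 and chr9:127424132-127424381 on the plus strand for ZNF79. ZNF420 has 2 windows among the RefSeq promoters, and only the first listed is shown and described. Capitals mark matches on either strand to any of 5 short motifs. The core motif of the ETS factors was searched as CCGGAAG. Part of the sequence read by the factor ZNF143 was searched as TTCCCAG. The box bound by NF-Y was searched as CCAAT, the GC box bound by SP factors as GGGCGGG, and the E-box to which ZEB1 can bind as CAGGTG.
ZNF367: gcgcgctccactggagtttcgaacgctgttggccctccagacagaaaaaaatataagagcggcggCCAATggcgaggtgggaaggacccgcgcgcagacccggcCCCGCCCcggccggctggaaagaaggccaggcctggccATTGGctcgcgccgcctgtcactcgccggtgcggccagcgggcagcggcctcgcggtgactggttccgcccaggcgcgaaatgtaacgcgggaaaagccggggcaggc
ZNF420: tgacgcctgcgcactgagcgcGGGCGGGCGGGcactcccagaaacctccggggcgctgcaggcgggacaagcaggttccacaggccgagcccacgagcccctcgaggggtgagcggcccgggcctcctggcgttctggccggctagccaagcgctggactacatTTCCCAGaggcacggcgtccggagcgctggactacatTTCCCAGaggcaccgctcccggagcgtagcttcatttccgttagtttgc
ZNF79: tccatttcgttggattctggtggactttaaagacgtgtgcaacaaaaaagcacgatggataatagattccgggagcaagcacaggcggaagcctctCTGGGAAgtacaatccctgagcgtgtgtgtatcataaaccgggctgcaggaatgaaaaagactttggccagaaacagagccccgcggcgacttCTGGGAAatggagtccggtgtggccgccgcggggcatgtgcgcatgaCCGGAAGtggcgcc
The ZNF367 window held 2 CCAAT boxes in opposite orientation around 1 GC box. The ZNF420 window held 2 TTCCCAG matches within a repeated stretch, and its 2 GC boxes overlapped each other.

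Members with a RefSeq promoter (240 of 277) were searched from 250 bases before to 50 after the start. A gene with several windows counted if any of them held the motif. CCGGAAG was present in 42.1% of these members, against 21.5% of the 10441 tested genes with a promoter and 12.2% of all genes with a promoter. TTCCCAG was present in 25.8% of members, against 14.3% of tested genes and 13.1% of all genes with a promoter. It stood in 33.6% of members on chromosome 19 and 19.2% of members on other chromosomes. CCAAT was found in 50.8% of members and 43% of tested genes, GGGCGGG in 52.9% and 60.5%, and CAGGTG in 21.2% and 23.9%. These shares describe the letters of the windows and do not show binding. The GC content, taken as the highest among the windows of a gene, had a median of 63% in members and 67% in tested genes.

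The members were bright by the rule but not among the brightest genes of these cells. The mean level over the 21 arrays ran from 4.59 to 12.15 with a median of 7.20, against a median of 7.91 over the 12879 genes tested, so the typical member lay at percentile 40.8 of them. Of the members, 13 averaged above 10 and 60 below 6. The 5 brightest probe sets were those of ZNF207, a spindle and kinetochore protein also called BuGZ, ZNF121, which binds MYC, ZNF22, ZNF664 and ZNF146, a protein made almost wholly of fingers. Nearest to the limit inside it were ZNF74, ZNF626 and ZNF836, whose smallest margins over an array median were 0.032, 0.040 and 0.045. Just outside were ZNF547 and ZNF514, which missed by 0.074 and 0.083 on 1 array each, and ZNF19, which missed by up to 0.109 on 2 arrays. Chromosome 19 held 122 members (44%), chromosome 16 held 22 and chromosome 7 held 20, whereas chromosome 19 held 6.85% of all genes tested and 58.1% of the ZNF genes that were not members. Probe sets of the types _s_at and _x_at, whose probes can also match related transcripts, stood for 81 members.

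The 48 h arrays stood apart from the others in the 3′ minus 5′ signal of control probe sets, taken here as a measure of RNA quality. What set these arrays apart was not tested. The mean 3′ minus 5′ signal of the GAPDH and ACTB control probe sets was 2.87, 8.55 and 3.35 in mir-429 cells at 24, 48 and 144 h. It was 4.21, 7.83 and 3.90 in control cells at those times and 3.15 in untransfected cells. The mir-429 arrays thus lay below the control arrays at 24 h, at 2.54 to 3.25 against 4.0 to 4.43, without overlap. Of the defining markers checked, epithelial KRT8 and KRT18, mesenchymal VIM, CDH2, FN1 and ZEB1, ovarian PAX8 and WT1 and endothelial CDH5 were above the median on all 21 arrays. Endothelial KDR was above it on 19 arrays, but endothelial PECAM1 on 3, TEK on 2 and VWF on 1. Epithelial KRT19 was above it on 2 arrays and leukocyte CD14 on 1. EPCAM, CDH1, MUC16 and 6 of 7 leukocyte markers were above it on none.

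The summed linear levels of the marker lists also moved with the groups. At 24 h the mesenchymal sum was 14925 to 15370 in mir-429 cells, against 16756 to 17379 in control cells. The ovarian sum was then 1774 to 2185 in mir-429 cells, against 2990 to 3380 in control cells, and the leukocyte sum 45.3 to 48.5 against 49.5 to 62.1. None of these ranges overlapped. The leukocyte sum is of signal near the background, since 6 of its 7 markers were above the array median on no array. At 48 h the epithelial sum was 4427 to 5144 in mir-429 cells, against 2210 to 3444 in control cells, and the mesenchymal sum 14933 to 16839 against 20457 to 22428. At 144 h the epithelial sum was 7701 to 8410 in mir-429 cells, against 5170 to 6225 in control cells, the ovarian sum 2969 to 3170 against 2624 to 2891, and the endothelial sum 1193 to 1253 against 612 to 889. The other sums overlapped between mir-429 and control cells at the same time. In control against untransfected cells, the endothelial sum was 235 to 285 at 24 h, 334 to 376 at 48 h and 612 to 889 at 144 h, against 897 to 1007. The mesenchymal sum was 16756 to 17379 at 24 h and 20457 to 22428 at 48 h in control cells, against 17806 to 19693 in untransfected cells. The epithelial sum was 2210 to 3444 at 48 h in control cells, against 5372 to 5893 in untransfected cells. The part of these differences in the results was not tested.

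The median level of the members differed between times. It was 7.33 ± 0.04, 6.92 ± 0.03 and 7.05 ± 0.04 in mir-429 cells at 24, 48 and 144 h (SD, n = 3 each). In control cells it was 7.42 ± 0.06, 7.06 ± 0.03 and 7.22 ± 0.02, and in untransfected cells 7.15 ± 0.05. The mir-429 arrays lay below the control arrays at 48 and 144 h without overlap and by a small margin at 24 h, where the highest mir-429 array and the lowest control array were both at 7.37. The median over all tested genes was likewise lowest at 48 h. It was 7.99, 7.76 and 7.94 in mir-429 cells at 24, 48 and 144 h, 7.95, 7.77 and 7.98 in control cells and 7.96 in untransfected cells.

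**Figure D1:**
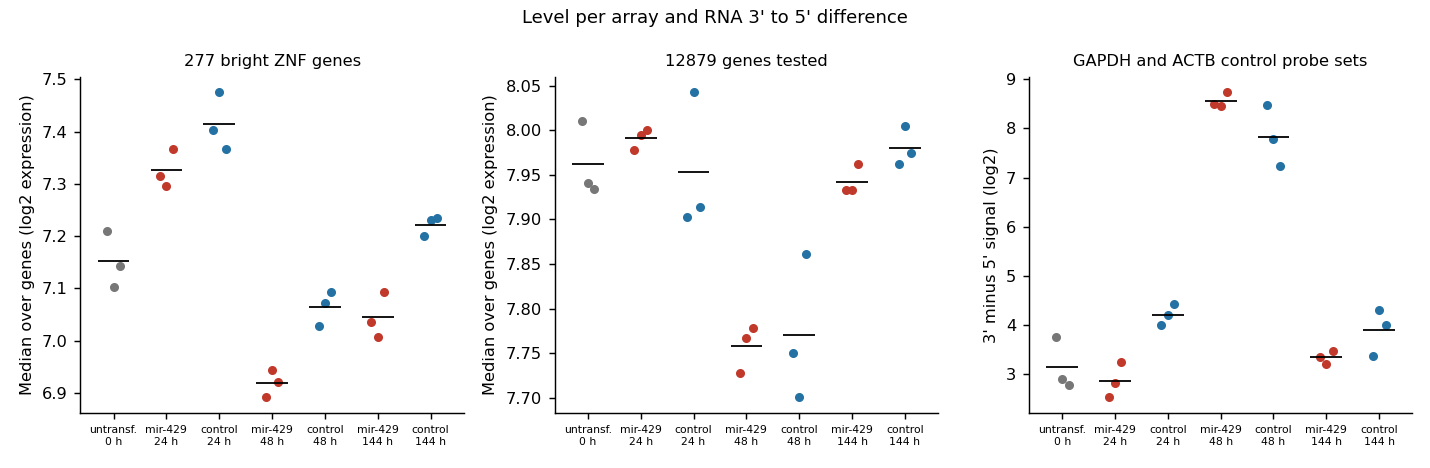
Left, median log2 expression over the 277 ZNF members on each array; middle, the same over all 12879 genes tested; right, mean 3′ minus 5′ log2 signal of the GAPDH and ACTB control probe sets. Points are arrays and lines group means (n = 3); member medians are lowest at 48 h with mir-429 (6.92), and the 48 h arrays stand apart on the right at 7.83 to 8.55 on average.

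Individual members ranged widely in how much they moved. The range of the 7 group means ran from 0.31 to 2.57 log2 units with a median of 0.91, and 116 members spanned at least 1 unit. The widest ranges were those of ZNF738, ZNF800 and ZNF79, all with an extreme at 48 h. The narrowest were those of ZNF200, ZNF747 and ZNF700 at 0.31 to 0.32. In limma's F test over the 7 groups, 245 members were called at an adjusted p of 0.05, or 88.4%, against 83.2% of all genes tested and 88.4% of the 10525 genes that, like the members, were above the median on every array. The largest F belonged to ZNF79, with means of 8.22, 6.46 and 7.36 in mir-429 cells at 24, 48 and 144 h, 8.78, 6.82 and 7.60 in control cells and 7.86 in untransfected cells. The members most like it over the 7 group means were ZNF232 (Pearson r = 0.97), ZNF530, ZNF526, ZNF419 and ZNF622, with r of 0.96 each. All 7 points share the array groups and their RNA quality.

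At 24 h mir-429 cells were compared with control cells to ask which members responded early. Limma called 59 of 277 members, 25 higher and 34 lower in mir-429 cells, or 21.3%, against 26.6% of all genes tested and 30.5% of the 10525 genes above the median on every array. By direction, 9.03% of members were higher and 12.3% lower, against 15% and 11.6% of all genes. The share of members was thus near or below that of all genes, and the median change was -0.06 in members and -0.02 in all genes. The largest rise was that of ZNF367, described as an activator of erythroid genes. It stood at 11.14, 10.97 and 10.82 on the mir-429 arrays, against 9.22, 9.11 and 8.25 on the control arrays. The groups did not overlap, and the rise was 2.11 ± 0.18 log2 units (SE), or 4.33-fold, with an adjusted p of 2.13e-07. The only probe set of ZNF367 is of the _x_at type.

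ZNF623 had the next largest rise at 24 h, with 6.54, 6.26 and 6.38 in mir-429 cells, against 5.28, 5.39 and 5.05 in control cells, a difference of 1.16 ± 0.12 (adjusted p = 3.19e-06). ZNF217, a repressor that works with CtBP and CoREST and is amplified in several cancers, had 8.77, 8.38 and 8.22 in mir-429 cells, against 7.75, 7.72 and 7.23 in control cells. All ZNF217 values with mir-429 were above all control values, and it rose by 0.89 ± 0.16. ZNF644, a partner of the histone methyltransferases G9a and GLP, rose by 0.75 ± 0.18, ZNF550 by 0.83 ± 0.16, ZNF248 by 0.76 ± 0.16 and ZNF664 by 0.71 ± 0.14. ZNF107 rose by 1.05 ± 0.20 on its _x_at probe set, but averaging its probe sets gave 0.32 (adjusted p = 0.142) and its brightest plain probe set 0.11 (adjusted p = 0.844). Averaged probe sets also lost the calls of ZNF550 at 0.31 (adjusted p = 0.093), ZNF248 at 0.28 (adjusted p = 0.1) and ZNF664 at 0.23 (adjusted p = 0.237).

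Among the falls at 24 h, ZNF358 had 5.42, 5.90 and 5.94 in mir-429 cells, against 6.58, 6.57 and 6.89 in control cells, and fell by 0.93 ± 0.19 without overlap. ZNF213 fell by 0.80 ± 0.13, ZNF142 by 0.77 ± 0.19, ZNF580 by 0.74 ± 0.16 and ZNF408, a gene linked to inherited retinal disease, by 0.74 ± 0.17. ZNF432, ZNF444 and ZNF264 fell by 0.72, 0.71 and 0.69, and with averaged probe sets ZNF264 was at -0.15 (adjusted p = 0.573). The lowest called change, that of ZNF609 at -1.10, lies outside the naming rule because its control arrays spread from 7.08 to 9.38 around the mir-429 arrays at 7.25 to 7.39; it is named here after its values were seen. Its other bright probe sets were at 0.28 and 0.25.

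The 3′ to 5′ difference did not overlap between the 24 h groups, so RNA quality and treatment cannot be told apart at that time. With it as a covariate, 4 members were called at 24 h, 2 higher and 2 lower. The share of all genes called in this fit is not set beside that count, so it describes the members alone. Of the 16 changes named by the rule, ZNF367 at 1.86 and ZNF623 at 0.96 were still called. The changes of ZNF107 (0.92), ZNF550 (0.68), ZNF248 (0.65), ZNF213 (-0.69) and ZNF444 (-0.53) were within 1.5 times of those without it but were not called. The other 9 were smaller by more than that, among them ZNF217 at 0.45, ZNF358 at -0.43 and ZNF432 at -0.19. Without control replicate 3, or without mir-429 replicate 1, 39 members were called.

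At 48 h the members called lower outnumbered those called higher. Of 60 members called, 12 were higher and 48 lower in mir-429 cells, or 21.7%, against 20.6% of all genes tested and 21.8% of the 10525 genes above the median on every array. By direction, 4.33% of members were higher and 17.3% lower, against 9.32% and 11.3% of all genes, and the median change was -0.08 in members and -0.01 in all genes. ZNF367 again had the largest rise, with 10.72, 10.72 and 10.67 in mir-429 cells, against 9.40, 9.74 and 9.47 in control cells. This was a rise of 1.16 ± 0.18 (adjusted p = 0.000118), 2.24-fold. ZNF114 rose by 0.72 ± 0.14, ZNF7 by 0.62 ± 0.11, ZNF814 by 0.62 ± 0.16, ZNF641 by 0.72 ± 0.20, ZNF182 by 0.50 ± 0.11 and ZNF623 by 0.45 ± 0.12. ZNF185, an actin-linked LIM protein that shares the ZNF name but is no C2H2 factor, rose by 0.46 ± 0.12. The rise of ZNF641 was lost without control replicate 1, where it was 0.39 (adjusted p = 0.0547), and without mir-429 replicate 2, where it was 0.65 (adjusted p = 0.0533). That of ZNF623 was lost without control replicate 2, at 0.36 (adjusted p = 0.058). With the probe sets of a gene averaged, ZNF814 was at 0.01 (adjusted p = 0.948), ZNF7 at 0.25 (adjusted p = 0.214), ZNF641 at 0.21 (adjusted p = 0.565) and ZNF182 at 0.35 (adjusted p = 0.077).

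The largest fall at 48 h was that of ZNF697, with 9.24, 8.70 and 8.77 in mir-429 cells, against 9.65, 10.61 and 10.23 in control cells. The arrays did not overlap, and it fell by 1.26 ± 0.22 (adjusted p = 0.000512). ZNF850 had 5.42, 5.77 and 5.61 in mir-429 cells, against 7.03, 6.40 and 6.39 in control cells, and fell by 1.01 ± 0.24. ZNF117, ZNF678, ZNF891 and ZNF383 fell by 0.86, 0.86, 0.85 and 0.82, ZNF532 by 0.79 and ZNF112 by 0.78. The calls of ZNF117 and ZNF891 were lost without mir-429 replicate 1, at -0.67 (adjusted p = 0.0786) and -0.60 (adjusted p = 0.0588). With the probe sets of a gene averaged, ZNF678 was at -0.45 (adjusted p = 0.0945). When the 6 arrays of 48 h were fitted alone, 16 members were called, 4 higher and 12 lower.

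At 144 h nearly all called members were lower. Limma called 24, with 1 higher and 23 lower, or 8.66%, against 5.85% of all genes tested and 6.03% of the 10525 genes above the median on every array. Of members, 0.361% were higher and 8.3% lower, against 1.48% and 4.37% of all genes, and the median change was -0.19 in members and -0.04 in all genes. At an unadjusted p under 0.05, 85 members passed, a count that was not made over all genes tested. The difference between the medians of members and all genes was -0.15 here and -0.13 after cyclic loess or quantile scaling. Setting array medians equal shifts every gene of an array alike, so it cannot change this difference and does not test it. Equal medians moved the median of all genes by 0.11 at 144 h, and then 8 members were called, 2 higher and 6 lower. The array median of mir-429 replicate 1 was 3.95, the lowest of all arrays, against 4.22 and 4.21 for replicates 2 and 3. Its median over the genes tested was 7.93, against 7.93 and 7.96 for those replicates. The part of this array in the loss of calls was not tested.

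ZNF117 had the largest fall at 144 h, with 5.43, 5.99 and 6.15 in mir-429 cells, against 7.18, 7.19 and 7.34 in control cells. It fell by 1.38 ± 0.24 without overlap (adjusted p = 0.00177), on an _x_at probe set. ZNF548 had 6.36, 6.0 and 6.23 in mir-429 cells, against 7.49, 7.46 and 7.38 in control cells, a fall of 1.25 ± 0.23. A second bright probe set of ZNF548 was at -0.55. ZNF718 fell by 0.99 ± 0.20, having risen by 0.57 ± 0.20 at 24 h, and was the single member called in opposite directions at different times. ZNF112 fell by 0.84 ± 0.20, ZNF605 by 0.77 ± 0.10 and ZNF180 by 0.75 ± 0.13. With the probe sets of a gene averaged, ZNF605 was at -0.20 (adjusted p = 0.368).

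The remaining named calls at 144 h were close to the threshold. ZNF416 was at -0.72 ± 0.18 (adjusted p = 0.0205) and ZNF141 at -0.72 ± 0.20 (adjusted p = 0.0389). ZNF277, a partner of a small ribosomal subunit protein, was the 1 member higher, with 8.54, 8.45 and 8.56 in mir-429 cells, against 8.12, 8.23 and 7.97 in control cells, a rise of 0.41 ± 0.11 (adjusted p = 0.0292). With averaged probe sets ZNF277 was at 0.06 (adjusted p = 0.873) and ZNF141 at -0.40 (adjusted p = 0.109). ZNF141 lost its call without any of the 6 arrays compared, while ZNF277 and ZNF416 lost theirs without 5 of the 6. ZNF112 lost its call without control replicate 1 or 2 or mir-429 replicate 2. The count of called members was 13, 9 and 11 without control replicates 1, 2 and 3, and 12 and 10 without mir-429 replicates 1 and 2.

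**Figure D2:**
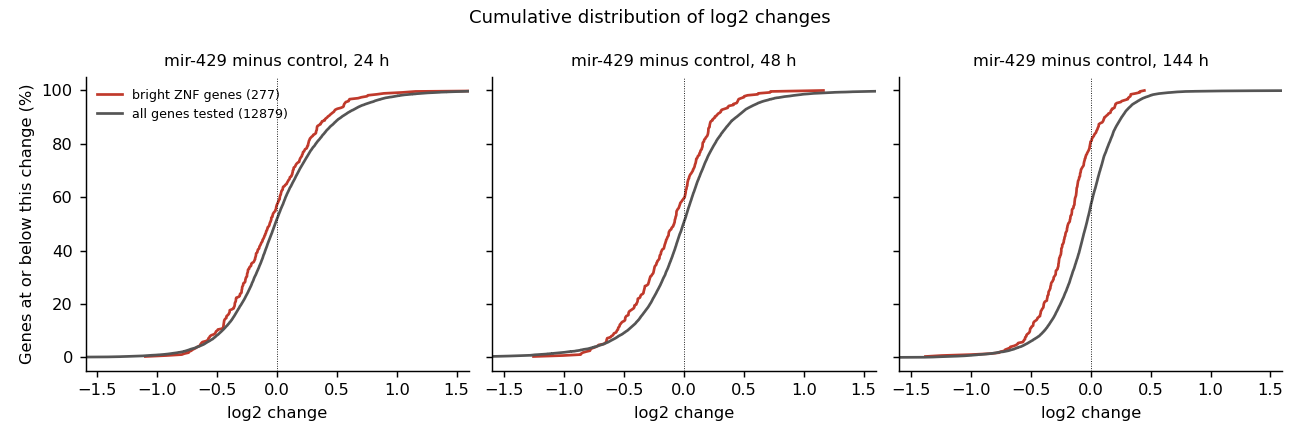
Cumulative share of genes (y axis, %) at or below each log2 change of mir-429 minus control (x axis) at 24, 48 and 144 h, for the 277 ZNF members and all 12879 genes tested. The curve of members lies furthest to the left of that of all genes at 144 h, where the medians are -0.19 and -0.04.

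Few members were called at several times. No single time called 162 members, 1 time called 88, 2 times called 26 and 3 times called 1. Neither these counts nor the overlaps between times given below were made over all genes tested, so they describe the members alone. That member was ZNF420, a KRAB protein also called APAK and described as an inhibitor of p53. ZNF420 had 8.09, 7.75 and 8.05 at 24 h, 7.32, 7.45 and 7.21 at 48 h and 7.62, 7.19 and 7.78 at 144 h in mir-429 cells. In control cells it had 8.50, 8.65 and 8.61, then 8.04, 7.89 and 8.21, then 8.08, 8.48 and 8.05. The mir-429 arrays were below the control arrays at each time without overlap, with falls of 0.62, 0.72 and 0.67 (SE 0.15 each). Between 24 and 48 h, 4 members were called higher at both times (ZNF367, ZNF623, ZNF770 and ZNF814) and 13 lower, or 38.2% of those lower at 24 h and 27.1% of those lower at 48 h. Between 48 and 144 h 9 members were lower at both times, or 18.8% and 39.1%.

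Averaged over the 3 times, 83 members were called, 12 higher and 71 lower in mir-429 cells, or 30%, against 28% of all genes tested and 30.4% of the 10525 genes above the median on every array. The total was near the background, but 25.6% of members were lower, against 15.4% of all genes, and 4.33% were higher, against 12.6%. The median change was -0.12 in members and -0.02 in all genes. Setting array medians equal gave 18 higher and 46 lower members. ZNF367 averaged 0.97 ± 0.10 (adjusted p = 1.29e-06) and ZNF420 -0.67 ± 0.09 (adjusted p = 1.21e-05). ZNF101 fell by 0.56 ± 0.06 (adjusted p = 3.05e-06), with 7.07, 7.13 and 6.89 in mir-429 cells at 24 h, against 7.76, 7.52 and 7.81 in control cells. ZNF383 fell by 0.49, ZNF362 by 0.47 and ZNF629 by 0.47, while ZNF83 rose by 0.28 and ZNF770 by 0.24. The change of ZNF770 was 0.50 at 24 h and 0.44 at 48 h but -0.21 at 144 h. ZNF367 was likewise higher with mir-429 at 24 and 48 h but lower at 144 h. Neither gene was called at 144 h, and their averages do not describe that time. The change of ZNF83 was 0.35, 0.09 and 0.41 at 24, 48 and 144 h. The rise of ZNF83 was 0.15 (adjusted p = 0.671) on a plain probe set, and that of ZNF770 was 0.21 (adjusted p = 0.138) with averaged probe sets.

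**Figure D3:**
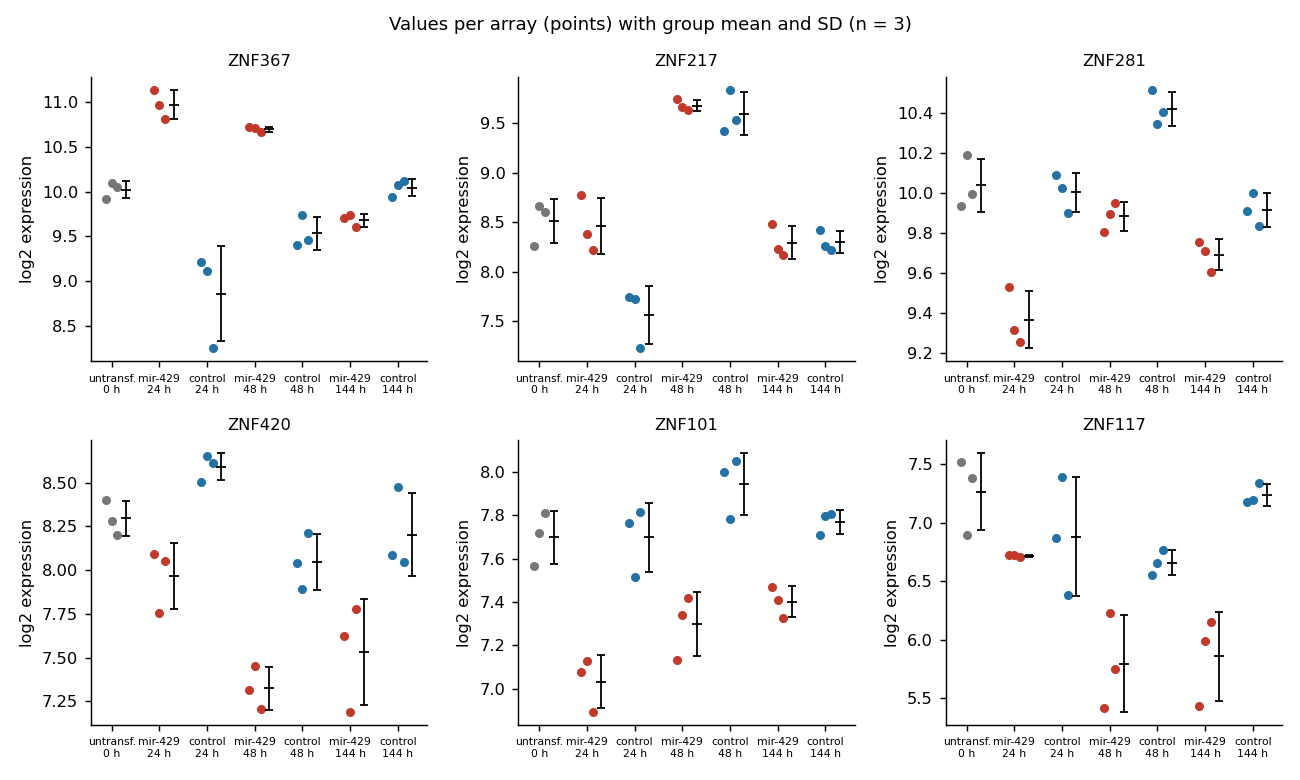
log2 expression of 6 members on every array, with group mean and SD beside the points (n = 3). ZNF367 is higher with mir-429 than with control at 24 h (means 10.97 and 8.86) and 48 h (10.70 and 9.54) but not at 144 h (9.68 and 10.05), and ZNF420 lies lower with mir-429 at all 3 times.

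The effect of mir-429 differed between times for a minority of members. The effect at 48 h minus that at 24 h was called for 15 members, 5 positive and 10 negative, or 5.42%, against 4.89% of all genes tested and 5.34% of the 10525 genes above the median on every array. Of all genes, 1.75% were positive and 3.14% negative. ZNF358 (0.95 ± 0.26), ZNF337 (0.80 ± 0.19), ZNF511 (0.61 ± 0.16) and ZNF444 (0.60 ± 0.16) had the largest positive differences. ZNF468 (-1.04 ± 0.27), ZNF107 (-1.02 ± 0.29), ZNF567 (-1.0 ± 0.25) and ZNF367 (-0.95 ± 0.25) had the largest negative ones. This count was the least stable, at 0 without control replicate 3 or mir-429 replicate 1 of 24 h, 51 without control replicate 2 of 24 h and 26 without control replicate 1 of 48 h. It was 5 without control replicate 1 or mir-429 replicate 3 of 24 h and 9 without mir-429 replicate 2 of 24 h. Among the other 48 h arrays it was 3 without control replicate 2 and 7, 9 and 4 without mir-429 replicates 1, 2 and 3. It was also 0 with the 3′ to 5′ covariate. Without the covariate 73 members passed an unadjusted p under 0.05, a count that was not made over all genes tested. The difference for ZNF107 turned to 1.13 on a plain probe set and 0.13 with averaged probe sets. With averaged probe sets that for ZNF567 was -0.06 (adjusted p = 0.924), and ZNF358 at 0.68 and ZNF444 at 0.61 were not called (adjusted p = 0.0961 and 0.0655).

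The effect at 144 h minus that at 48 h was called for 15 members, 2 positive and 13 negative, or 5.42%, against 9.47% of all genes tested and 10.2% of the 10525 genes above the median on every array. Of all genes, 3.84% were positive and 5.62% negative. ZNF367 had the largest negative difference, -1.53 ± 0.25 (adjusted p = 0.000723), its effect being 1.16 at 48 h and -0.36 at 144 h. ZNF718 was at -1.25 ± 0.28, ZNF814 at -1.15 ± 0.22 and ZNF641 at -1.10 ± 0.28. With averaged probe sets the differences for ZNF814 and ZNF641 were -0.40 (adjusted p = 0.096) and -0.33 (adjusted p = 0.591). The positive ones were ZNF697 at 1.05 ± 0.31 and ZNF267 at 0.75 ± 0.20. ZNF697 lost its call without 9 of the 12 arrays compared and ZNF267 without 5 of them. Leaving out single arrays gave 10 to 20 called members.

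Control cells were set against untransfected cells to measure what transfection and time in culture did without mir-429, and at 24 and 48 h more members were called here than with mir-429. At 24 h 122 members were called, 79 higher and 43 lower in control cells, or 44%, against 38% of all genes tested and 42.8% of the 10525 genes above the median on every array. Of members, 28.5% were higher and 15.5% lower, against 18.3% and 19.8% of all genes. ZNF142 had 8.42, 8.96 and 8.77 in control cells, against 7.90, 7.38 and 7.31 in untransfected cells, a rise of 1.19 ± 0.19 without overlap. ZNF408 rose by 1.18, ZNF329 by 1.16, ZNF136 by 1.14, ZNF10, the KRAB protein also called KOX1, by 1.06 and ZNF430 by 1.02. ZNF10 was measured on an _s_at probe set, and a plain probe set gave -0.048 (adjusted p = 0.899), averaged probe sets 0.32 (adjusted p = 0.159). When the RNA quality measure entered the fit as a covariate, 45 members were called.

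The falls in control cells at 24 h included members that were higher with mir-429 at that time. ZNF367 had 9.22, 9.11 and 8.25 in control cells, against 9.92, 10.10 and 10.06 in untransfected cells, and fell by 1.16 ± 0.18. ZNF623 fell by 1.16 ± 0.12, ZNF550 by 0.95 ± 0.16 and ZNF217 by 0.95 ± 0.16. These values share the control arrays of 24 h with the mir-429 comparison. The mir-429 means at 24 h were 10.97 for ZNF367, 6.39 for ZNF623, 7.72 for ZNF550 and 8.46 for ZNF217, and the untransfected means 10.02, 6.39, 7.84 and 8.51. ZNF224, which represses the aldolase A gene, and ZNF519 fell by 1.08 and 1.07. With the probe sets of a gene averaged, ZNF224 was at -0.26 (adjusted p = 0.0599).

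At 48 h 154 members were called, 53 higher and 101 lower in control cells, or 55.6%, against 54.5% of all genes tested and 58% of the 10525 genes above the median on every array. Of members, 19.1% were higher and 36.5% lower, against 18.4% and 36.1% of all genes. The median change was -0.14 in members and -0.16 in all genes, and cyclic loess scaling, which moved the latter by 0.10, gave 69 higher and 75 lower members. Equal array medians gave 63 and 78. ZNF738 had 8.20, 8.81 and 8.26 in control cells, against 6.22, 6.30 and 6.36 in untransfected cells, a rise of 2.13 ± 0.17. ZNF800 rose by 1.92, ZNF468 by 1.66, ZNF609 by 1.57, ZNF275 by 1.49 and ZNF500 by 1.46. ZNF141 fell by 1.79, ZNF248 by 1.70, ZNF703, an oncogene in breast cancer, by 1.68, ZNF789 by 1.57, ZNF224 by 1.52 and ZNF202, a repressor of lipid metabolism genes, by 1.52. With the probe sets of a gene averaged, ZNF800 was at 0.22 (adjusted p = 0.206) and ZNF224 at -0.19 (adjusted p = 0.11). The 48 h control arrays had the high 3′ to 5′ difference, and with it as a covariate 2 members were called, 1 higher and 1 lower. The changes then carried much larger errors. ZNF738 was at 2.37 ± 0.69, ZNF800 at 2.90 ± 1.56, ZNF468 at 2.47 ± 0.76, ZNF275 at 4.06 ± 1.45, ZNF609 at 1.85 ± 1.49 and ZNF141 at -1.65 ± 0.81, each as large or nearly as large as without it but not called. ZNF703 at -0.30 ± 0.44 and ZNF224 at -0.78 ± 0.70 were smaller, and ZNF789 at -2.56 was called. Time and RNA quality cannot be told apart in this comparison.

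At 144 h 1 member was called in control cells against untransfected cells, or 0.361%. This compares with 0.474% of all genes tested and 0.456% of the 10525 genes above the median on every array. At an unadjusted p under 0.05, 32 members passed, a count that was not made over all genes tested. The called member was higher, as were 0.28% of all genes, while 0.194% were lower. The member was ZNF134, with 7.60, 7.71 and 7.60 in control cells, against 7.18, 7.27 and 7.04 in untransfected cells, a rise of 0.47 ± 0.10 (adjusted p = 0.0492). The call was lost without any of the 6 arrays compared. Fitting only those 6 arrays called 12 members, 5 higher and 7 lower.

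Members on chromosome 19, where most KRAB clusters lie, and members elsewhere are described side by side, without a test. In mir-429 against control cells, 8 of 122 members on chromosome 19 were higher and 19 lower at 24 h, 2 and 24 at 48 h, and 0 and 14 at 144 h. Of the 155 members elsewhere, 17 were higher and 15 lower at 24 h, 10 and 24 at 48 h, and 1 and 9 at 144 h. As shares, on chromosome 19 6.56% were higher and 15.6% lower at 24 h, 1.64% and 19.7% at 48 h, and 0% and 11.5% at 144 h. Over all genes tested the shares were 15% and 11.6% at 24 h, 9.32% and 11.3% at 48 h, and 1.48% and 4.37% at 144 h. In control against untransfected cells at 24 h, 46 members on chromosome 19 were higher and 6 lower, with a median change of 0.28. Elsewhere 33 were higher and 37 lower, with a median of 0.03, and over all genes tested 18.3% were higher and 19.8% lower. Members on chromosome 19 were also dimmer, with a median level of 6.65 against 7.51 elsewhere.

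**Figure D4:**
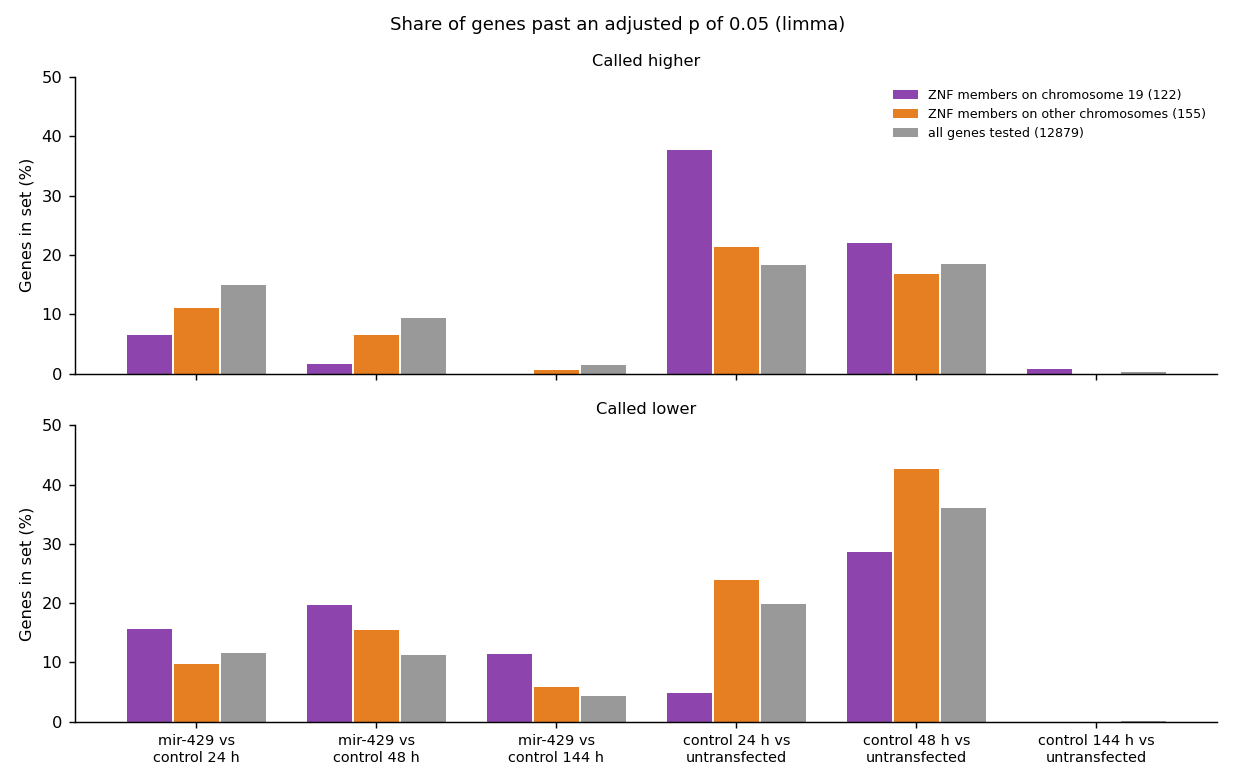
Share of genes (bars, %) called higher (top) and lower (bottom) in 6 comparisons, for members on chromosome 19 (122), members on other chromosomes (155) and all genes tested (12879). In control against untransfected cells at 24 h the bars for chromosome 19 are 37.7% higher and 4.92% lower.

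By role, of the 12 members with known parts in RNA, ribosomes or the spindle, 1 was called at each time with mir-429. This is 8.33%, against 26.6%, 20.6% and 5.85% of all genes tested at 24, 48 and 144 h. ZNF330, a nucleolar protein, rose by 0.41 ± 0.11 at 24 h (adjusted p = 0.0105). Another bright probe set of ZNF330 was at -0.30 at 24 h, the opposite sign. ZNF207 fell by 0.25 ± 0.07 at 48 h (adjusted p = 0.0212), with 12.25, 12.18 and 12.24 in mir-429 cells, against 12.46, 12.47 and 12.50 in control cells. The other 4 bright probe sets of ZNF207 were at 0.05 to 0.42 at that time, the opposite sign. In control against untransfected cells at 24 h, ZNF593 and ZNF622, which act in maturation of the large ribosomal subunit, rose by 0.76 and 0.70. The naming rule did not pick either gene for this comparison. Calls for the rest of the list are not given there, so these rises do not describe the list. Of all genes tested, 18.3% were higher and 19.8% lower in that comparison.

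The 19 members that act at promoters or in chromatin complexes had 6 called higher and 2 lower at 24 h with mir-429, 0 and 3 at 48 h, and none at 144 h, with a median change of -0.09 there. Over all genes tested 15% were higher and 11.6% lower at 24 h, 9.32% and 11.3% at 48 h, and 1.48% and 4.37% at 144 h. The 3 lower at 48 h were ZNF532, a partner of the ZMYND8 complex, ZNF219, which fell by 0.59 ± 0.14, and ZNF281. ZNF281, a regulator of stem cell genes that has been linked to epithelial-mesenchymal transition, had 9.53, 9.31 and 9.26 in mir-429 cells at 24 h, against 10.09, 10.02 and 9.90 in control cells. At 48 h it had 9.81, 9.89 and 9.95 in mir-429 cells, against 10.52, 10.34 and 10.40 in control cells. ZNF281 thus fell at both times without overlap, by 0.64 ± 0.10 and 0.54 ± 0.10. At 144 h it had 9.76, 9.71 and 9.61 in mir-429 cells, against 9.91, 10.00 and 9.83 in control cells, and did not pass the test (-0.22, adjusted p = 0.21). Averaged over times ZNF281 fell by 0.47 ± 0.06 and ZNF532 by 0.45 ± 0.11, while ZNF217 rose by 0.32 ± 0.09 and ZNF516, an activator of the Ucp1 gene in mouse brown fat, by 0.47 ± 0.11. ZNF274, which brings SETDB1 to ZNF genes, fell by 0.17 ± 0.06 (adjusted p = 0.0494).

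The cofactors through which zinc finger repressors work are not members, but 25 of 27 listed were tested. With mir-429, 4 were higher and 1 lower at 24 h, 2 and 1 at 48 h, and none at 144 h. The shares called, 20% at 24 h and 12% at 48 h, were below the 26.6% and 20.6% of all genes tested, and 5.85% of all genes were called at 144 h. TRIM28 averaged 10.09, 10.02 and 10.39 in mir-429 cells at 24, 48 and 144 h, and 10.21, 10.12 and 10.43 in control cells, and was not called at any time. HDAC1, a histone deacetylase, had 10.90, 10.85 and 10.86 in mir-429 cells at 48 h, against 9.99, 9.87 and 10.25 in control cells, and rose by 0.83 ± 0.10 (adjusted p = 8.50e-06). RCOR1, the CoREST scaffold that binds ZNF217, rose by 0.62 ± 0.09 at 24 h and 0.46 ± 0.09 at 48 h. RBBP4, a histone chaperone, rose by 1.33 ± 0.26 at 24 h and HDAC2 by 0.49 ± 0.13, whereas CHD3, a nucleosome remodeller named here after its value was seen, fell by 0.69 ± 0.19 at 24 h and CBX5, a heterochromatin protein, by 0.28 ± 0.09 at 48 h. The cofactors higher at 24 h were lower in control than in untransfected cells at that time, RBBP4 by 1.19, RCOR1 by 0.51, HDAC1 by 0.42 and HDAC2 by 0.35 log2 units, all called and sharing the control arrays. The mean of RBBP4 was 9.76 in mir-429 cells at 24 h and 9.61 in untransfected cells, and that of RCOR1 9.04 and 8.94.

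Counts for related zinc finger families are set beside the shares of all genes tested, which were 15% higher and 11.6% lower at 24 h, 9.32% and 11.3% at 48 h, and 1.48% and 4.37% at 144 h. At 24 h with mir-429, 12 of 33 ZBTB genes were higher and 3 lower (36.4% and 9.09%), with a median change of 0.20. Of 12 KLF genes 4 were higher and 1 lower (33.3% and 8.33%), with a median of 0.27. Of 12 ZSCAN genes 2 were higher and none lower, and of 6 ZKSCAN genes 2 were higher and 1 lower. At 48 h 4 ZBTB genes were higher and 3 lower, 2 KLF genes higher and 2 lower, 2 ZSCAN genes lower and 1 ZKSCAN gene higher. At 144 h no gene of these families was higher, and 2 ZBTB and 2 ZSCAN genes were lower. Of the 52 dimmer ZNF genes tested, 3 were higher and none lower at 24 h, 3 and 7 at 48 h, and 0 and 9 (17.3%) at 144 h, with a median change of -0.21 at 144 h.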

How the data were processed

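Per the submitters' processing notes, the authors deposited RMA log2 expression values per probe set; no RMA software or version is named in the notes. The table holds 54675 probe sets, of which the platform annotation gives 1 symbol to 41097, several to 1801 and none to 11777. All 277 members matched RefSeq (GRCh38.p14) under the same symbol. Each gene was represented by its brightest single-symbol probe set, and genes above the array median on at least 3 arrays were tested (12879 of 19775). For arrays there is no depth in reads; 3 per group set the precision.

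A mean per group was fitted to all 21 arrays with limma 3.58.1 in R 4.3.3 (14 residual degrees of freedom, prior 3.93), with 9 comparisons and an F test, two-sided, and Benjamini-Hochberg adjustment over the genes tested at 0.05. Errors are SE from this fit unless marked SD. Levels compare probe sets on the array scale, which is not corrected for probe affinity.

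The members and lists were chosen with earlier results of these data known. Named genes were members past the threshold without overlap between the groups: the 8 largest rises and falls at each time, 5 for the average, 4 for differences between times and 6 for control against untransfected cells. The brightest, the widest and narrowest ranges, those nearest the limit of the rule, called members of the role lists and up to 4 called cofactors were added. A list of KRAB-type members was not used here.

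On simulated data for 24 h (12879 genes), the fit recovered 35.8% of 67 changes of 0.5, 83.6% of 67 of 1 and 100% of 66 of 2 log2 units, with 6 false of 152 calls. The simulation used independent noise per gene, few changed genes and no 3′ to 5′ difference between groups. In the data 26.6% of genes were called at 24 h and that difference was present, so these rates may not hold there. Alternatives were other scalings, no filter, averaged probe sets, no _x_at or _s_at probe sets, only the arrays compared, a replicate block, a 3′ to 5′ covariate, each array left out and, added after seeing the data, the fit without the 48 h arrays.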

Additional observations from a re-analysis of the deposited data

Results flagged for a closer look

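Effects of mir-429 that differed between times by limma's test of the difference are collected here. Between 24 and 48 h this held for 15 members and between 48 and 144 h for 15. From 24 to 48 h the difference in the log2 effect was 0.95 for ZNF358, 0.80 for ZNF337, 0.61 for ZNF511 and 0.60 for ZNF444, whose effects were lower at 24 h than at 48 h. It was -1.04 for ZNF468, -1.02 for ZNF107, -1.0 for ZNF567 and -0.95 for ZNF367, whose effects were higher at 24 h. From 48 to 144 h it was 1.05 for ZNF697 and 0.75 for ZNF267. It was -1.53 for ZNF367, -1.25 for ZNF718, -1.15 for ZNF814 and -1.10 for ZNF641. The 48 h arrays differ from those of the other times in the 3′ minus 5′ signal of control probe sets. The part of this in the differences was not tested beyond the covariate fit.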

How the results depend on the processing

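Counts under the alternatives are for members alone, without the share of all genes called in each. They do not show whether members lost more calls than other genes. Members called kept within 1.5 times of the main count under most alternatives, with these exceptions, for which the cause was not tested. The 3′ to 5′ covariate called 4 members at 24 h, 45 and 2 for control against untransfected cells at 24 and 48 h, and 0 for the 48 h minus 24 h difference. Averaged probe sets called 38 at 24 h and 9 for each difference between times. Equal array medians called 8 at 144 h, where mir-429 replicate 1 had the lowest array median of all. They called 3 for the 48 h minus 24 h difference. Without a filter 15 were called at 144 h and 1 for that difference, with more genes tested. Fitting only the arrays compared, with fewer arrays, called 16 at 48 h, 0 for the 48 h minus 24 h difference and 8 for the 144 h minus 48 h difference. For control at 144 h, where 1 was called, the count was 2 with cyclic loess, 12 with only the arrays compared and 0 without a filter, with averaged probe sets, without _x_at and _s_at probe sets, with the replicate block, with the covariate and without the 48 h arrays. Splits of higher and lower calls moved with scaling for the 48 h minus 24 h difference (8 and 10 with cyclic loess, 2 and 1 with equal medians) and the 144 h minus 48 h difference (4 and 11 with cyclic loess). The direction turned for ZNF107 in the 48 h minus 24 h difference (0.13 with averaged probe sets, 1.13 without _x_at and _s_at probe sets) and for ZNF10 in control cells at 24 h (-0.048 without them). Leaving out 1 array gave 39 to 82 calls at 24 h, 44 to 58 at 48 h, 9 to 20 at 144 h, 70 to 95 averaged, 0 to 51 and 10 to 20 for the differences between times, 83 to 123, 130 to 150 and 0 to 2 for control against untransfected cells at 24, 48 and 144 h, and 238 to 249 in the F test. Deviations of arrays from their group means correlated at -0.41 to 0.31 between same-numbered arrays of different groups. Between differently numbered arrays of different groups they correlated at -0.37 to 0.34. Whether the numbers pair the arrays was not tested. The replicate block called 57, 57 and 21 members at 24, 48 and 144 h and 78 averaged. Of 1525 alternative values for the named genes, 1307 kept their call, 215 lost it and 3 turned. Other bright probe sets of called members had the same sign in 21 of 31 (67.7%) at 24 h, 29 of 35 (82.9%) at 48 h and 9 of 10 (90%) at 144 h.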
